A study of Mus musculus with 11 samples.

Results

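Small nucleolar RNAs (snoRNAs), the small RNAs of Cajal bodies (scaRNAs) and the long transcripts that carry snoRNAs in their introns were followed in liver CD4 T cells with and without Atg5. Members are the genes whose GENCODE M21 (GRCm38) symbol starts with Snord, Snora, Scarna or Snhg, together with Gas5. The annotation lists 99 Snord, 42 Snora, 9 Scarna and 15 Snhg genes, and 129 members were in the count table of 56748 genes. These were 70 Snord genes (box C/D RNAs), 37 Snora genes (box H/ACA RNAs), 6 Scarna genes, 15 Snhg genes and Gas5. Of the 129, 124 had at least 1 read, and 110 passed the filter on low counts and were tested: 58 Snord, 34 Snora, 6 Scarna, 11 Snhg and Gas5. Snora43 is annotated under 2 overlapping IDs that share their reads, so that the 34 Snora entries are 33 symbols.

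Box C/D RNAs guide the methylation of ribose in ribosomal RNA by the protein fibrillarin, and box H/ACA RNAs guide the conversion of uridine to pseudouridine by dyskerin. scaRNAs do the same for the RNAs of the spliceosome. In mammals most of them are cut out of the introns of host genes, many of which encode ribosomal proteins or translation factors. Others are long noncoding RNAs such as Gas5 and the Snhg (snoRNA host gene) transcripts, whose spliced RNA is often removed by nonsense-mediated decay. Many hosts start with a tract of pyrimidines, the feature by which growth signals control the translation of ribosomal protein mRNAs.

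The study sequenced RNA of CD4 T cells from the livers of mice that were injected with carbon tetrachloride (CCl4), which injures hepatocytes and leads to fibrosis, for 5 weeks. There were 6 Atg5-deficient libraries (genotype ATG5TLymph-/-, in which T lymphocytes lack Atg5, a protein needed to form autophagosomes) and 5 wild-type libraries (ATG5fl/fl, the floxed gene left intact), and all mice of both groups received CCl4. The sources used here do not name the Cre driver, the age of the mice or the number of mice behind a library. The p-values therefore measure the spread among these libraries, which may be technical. The design text describes flow sorting, whereas the protocols describe fixed, paraffin-embedded sections and a stranded total RNA kit, and the labels do not settle which holds.

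The box C/D RNAs that the comparison turns on are printed from 5′ to 3′ as GENCODE M21 gives them, with the first TGATGA (the usual form of box C) and the last CTGA (box D) in capitals. Snord34, Snord57, Snord82, Snord89 and Snord22 had lower counts in Atg5-deficient libraries by the test, and Snord15b was the most counted member.
Snord34: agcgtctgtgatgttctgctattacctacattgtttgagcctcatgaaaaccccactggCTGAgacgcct
Snord57: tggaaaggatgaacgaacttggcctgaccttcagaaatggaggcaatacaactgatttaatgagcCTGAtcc
Snord82: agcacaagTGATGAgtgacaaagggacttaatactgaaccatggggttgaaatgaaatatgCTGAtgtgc
Snord89: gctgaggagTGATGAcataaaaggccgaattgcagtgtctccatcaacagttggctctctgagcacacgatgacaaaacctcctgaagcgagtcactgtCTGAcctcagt
Snord22: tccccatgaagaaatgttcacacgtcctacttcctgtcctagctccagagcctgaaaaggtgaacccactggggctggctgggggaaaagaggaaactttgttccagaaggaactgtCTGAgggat
Snord15b: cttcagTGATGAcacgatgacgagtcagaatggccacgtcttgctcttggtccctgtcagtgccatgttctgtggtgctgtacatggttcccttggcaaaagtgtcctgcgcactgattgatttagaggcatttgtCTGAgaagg

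Searched on the RNA strand only, TGATGA was found in 50 of the 70 Snord genes (71.4%) and in none of the 37 Snora genes, and it preceded a CTGA in all 50. Snord34, Snord57 and Snord22 lack these exact letters. Box H/ACA RNAs are longer. Snora24, Snora44 and Snora7a, which fell, are shown, and the capitals mark an ACA that lies 3 bases before the 3′ end, as in the usual ACA box.
Snora24: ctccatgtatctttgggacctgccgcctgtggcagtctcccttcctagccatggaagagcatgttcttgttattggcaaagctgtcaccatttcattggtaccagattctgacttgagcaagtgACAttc
Snora44: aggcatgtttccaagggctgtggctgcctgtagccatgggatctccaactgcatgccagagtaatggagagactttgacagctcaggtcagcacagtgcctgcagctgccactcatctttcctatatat
Snora7a: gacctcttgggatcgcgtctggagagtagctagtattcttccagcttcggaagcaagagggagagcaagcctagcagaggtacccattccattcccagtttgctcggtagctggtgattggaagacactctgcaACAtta
Of the 37 Snora genes 30 (81.1%) have an ACA at that place, and none of the 70 Snord genes does. Snora44, whose annotated letters run on without it, does not. The median length was 78 bases for Snord, 132 bases for Snora and 198 bases for Scarna genes.

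Libraries held 30699408 to 47564440 counts, so that 3 counts correspond to 0.0631 to 0.0977 CPM (a gene's count scaled to the same total in every library), and a lower value cannot be distinguished from 0. Markers of CD4 T cells summed to 2948 to 4564 CPM and those of hepatocytes to 75.8 to 1298 CPM in Atg5-deficient libraries, against 55.8 to 750 CPM in wild-type ones (502 and 750 CPM in wild-type 2 and 3). No marker gene of the 8 lists was at 0 in all libraries. Atg5 itself was counted at 19.2 ± 2.51 CPM (SD) in the 6 libraries labelled Atg5-deficient, against 16.9 ± 3.59 CPM in the 5 others (log2 value 0.18, adjusted p = 0.488, edgeR). A count over the whole gene does not check the deletion, since reads from its remaining exons enter it. Of 17987 tested genes 434 were lower (2.41%) and 797 higher (4.43%) in Atg5-deficient libraries at an adjusted p under 0.05. With upper-quartile scaling these were 685 and 584.

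A pair of libraries stood apart in these RNAs. Wild-type replicates 2 and 3 both lay above each of the other 9 libraries in 37 of 58 tested Snord genes, 15 of 34 Snora, 3 of 6 Scarna and 6 of 11 Snhg genes, against 5.81% of all tested genes. Relative to the median of the other libraries, the median Snord gene was higher by log2 values of 0.87 in replicate 2 and 1.11 in replicate 3. In the other 3 wild-type libraries that value was 0.04 to 0.26. In the 6 Atg5-deficient libraries it ran from -0.41 to -0.13. The same replicates 2 and 3 had the lowest scaling factors (0.909 and 0.931, the others 0.948 to 1.055) and the largest share of counts in their 20 most counted genes (33.1% and 30.3%, the others 21.5% to 28.0%). The part of this composition in the results was not tested. The 12 hepatocyte markers differed between libraries as well, and with their level as a covariate 29 members were called lower, against 3.10% of all tested genes. Results are therefore given with all 11 libraries and, as an alternative chosen after seeing the data, without these 2.

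**Figure D1:**
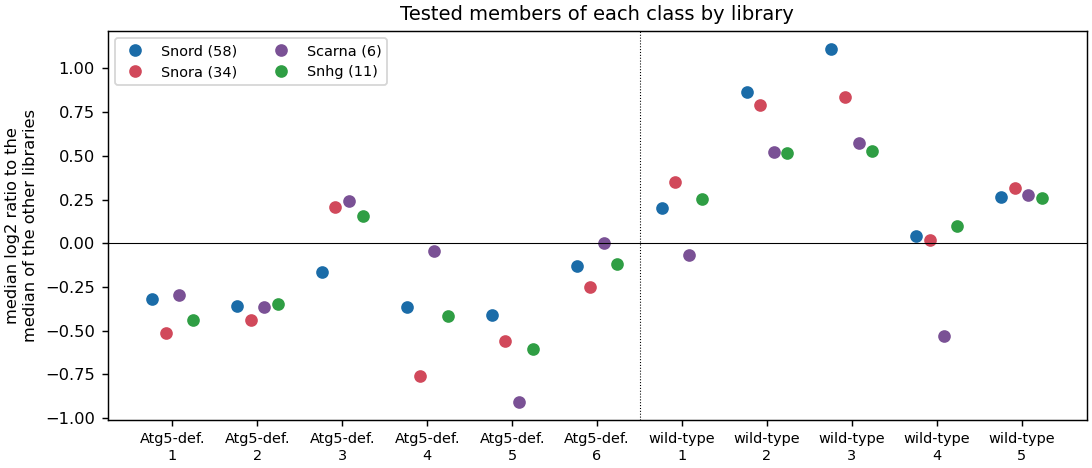
Median log2 ratio of the tested members of each class to the median of the other 10 libraries, by library (points; numbers in the key are tested genes). Wild-type 2 and 3 are highest in all 4 classes, and Atg5-deficient 3 is the only Atg5-deficient library above 0 in Snora and Snhg genes.

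No member was called higher and 19 were called lower in Atg5-deficient libraries, against 2.41% lower and 4.43% higher among all tested genes (edgeR). DESeq2 and limma-voom called 37 and 28 members lower, against 5.22% and 8.01% of all genes, and also none higher. DESeq2 kept all 19 calls. limma-voom kept 14 and lost Snord34, Snord57, Snord82, Snord83b and Snord99. Its Snord calls came to 6, and these include genes that edgeR did not call. An unadjusted p under 0.05 was found for 60 of the 110, against 23.4%. The 19 members called lower by edgeR were 8 of 58 Snord genes, 5 of 34 Snora genes, 5 of 11 Snhg genes, Gas5 and none of the 6 Scarna genes. Log2 fold changes were negative in 105 of 110 tested members, against 50.3% of all tested genes. The median was -0.84 for Snord, -0.71 for Snora, -0.28 for Scarna and -0.55 for Snhg genes, and 0.00 for all tested genes. In bulk samples fewer cells of a type and less RNA per cell cannot be told apart.

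The count rested on single libraries. Leaving out Atg5-deficient replicate 1, 2 or 4 gave 9, 10 and 8 members lower, against 1.14%, 1.08% and 1.14% of all genes. Leaving out Atg5-deficient replicate 3 gave 29, against 4.14%. Leaving out wild-type replicate 2 or 3 gave 8 and 7, against 1.76% and 1.51%. When wild-type replicates 2 and 3 were both left out it was 3 (Snhg12, Snhg8 and Snhg17), against 1.26%, and no snoRNA or scaRNA remained. The median log2 fold change was then -0.35 for Snord, -0.45 for Snora, 0.00 for Scarna and -0.31 for Snhg genes, and 96 of the 110 members were negative, against 48.0% of all genes. That fit has 3 wild-type libraries and less power. The value with all libraries was the more negative one in 93 of 110 members. This largely follows from the choice of the 2 libraries, which were left out because they were high in these members.

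**Figure D2:**
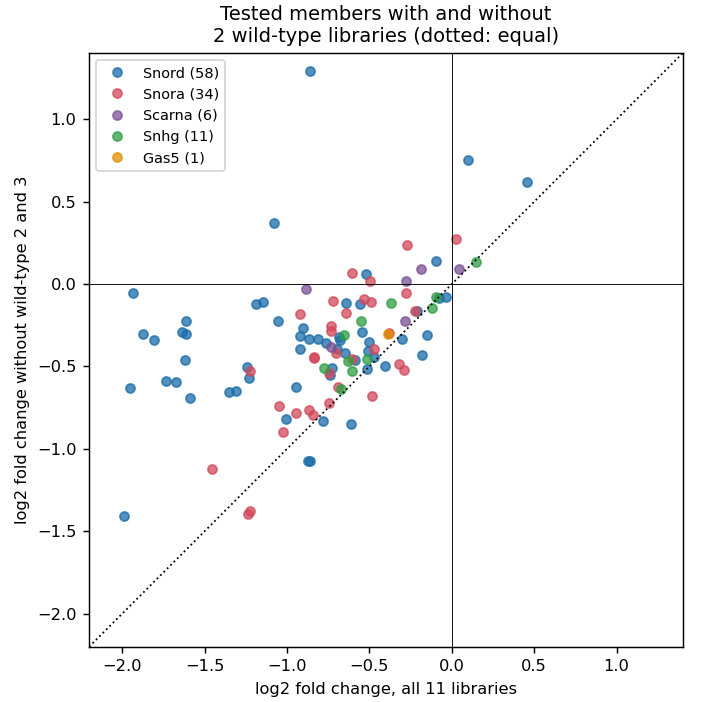
Log2 fold changes (Atg5-deficient minus wild-type) of the 110 tested members with all 11 libraries (x axis) and without wild-type replicates 2 and 3 (y axis), coloured by class. Most points lie above the dotted line of equal values, with the medians going from -0.84 to -0.35 for Snord and from -0.55 to -0.31 for Snhg genes. The libraries left out were chosen because they were high in these members.

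Among the host transcripts, Snhg12 fell by 0.61 on the log2 scale (SE 0.10, adjusted p = 0.00478, edgeR). Snhg12 carries Snora44, Snora61, Snora16a and Snord99 (ENSMUSG00000086290, chromosome 4, 132308623 to 132311024, plus strand, GRCm38). Its 6 Atg5-deficient libraries had 25.8, 28.0, 36.2, 27.2, 26.2 and 27.9 CPM (TMM-scaled, as are all values of single genes), and its 5 wild-type libraries 42.0, 45.9, 47.1, 39.4 and 42.9 CPM. The groups did not overlap, and Atg5-deficient replicate 3 was the nearest to the wild-type range. Leaving out any 1 of the 11 libraries kept the call, as did leaving out wild-type 2 and 3 (-0.53, adjusted p = 0.0301).

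Snhg8, host of Snora24 (ENSMUSG00000104960, chromosome 3, 123507552 to 123508404, minus strand), had 33.5, 31.0, 30.7, 34.2, 25.8 and 35.7 CPM in Atg5-deficient libraries. Wild-type libraries had 43.3, 46.5, 49.3, 44.0 and 44.3 CPM, all above the Atg5-deficient range. Snhg8 fell by 0.52 (SE 0.09, adjusted p = 0.00666, edgeR), and by 0.46 without wild-type 2 and 3 (adjusted p = 0.0367). Snhg17 (ENSMUSG00000085385, chromosome 2, 158353700 to 158361580, minus strand) stood at 11.5, 13.0, 17.3, 11.8, 11.8 and 13.9 CPM against 23.0, 23.7, 19.4, 18.6 and 20.3 CPM. For this gene wild-type replicate 3 was the second lowest of its group, and the groups again did not overlap. Snhg17 fell by 0.67 (SE 0.12, adjusted p = 0.00853) and by 0.64 without wild-type 2 and 3 (adjusted p = 0.0370). When Atg5-deficient replicate 5 was left out as well, the adjusted p of Snhg17 was 0.0525, and Snhg12 and Snhg8 kept their calls (0.0416 and 0.0360).

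Snhg1, the host of Snord22 and the most counted Snhg transcript (ENSMUSG00000108414, chromosome 19, 8723475 to 8726443, plus strand), had 51.9, 55.7, 72.1, 58.7, 50.2 and 75.8 CPM in Atg5-deficient libraries. Wild-type libraries had 88.2, 102, 113, 80.9 and 84.4 CPM. It fell by 0.63 (SE 0.12, adjusted p = 0.0111, edgeR), and without wild-type 2 and 3 the value was -0.47 (adjusted p = 0.0649). Snhg6, host of Snord87, had 7.98, 10.2, 11.8, 8.06, 7.50 and 11.6 CPM against 15.2, 18.8, 21.8, 12.5 and 13.2 CPM. It fell by 0.77 (SE 0.17, adjusted p = 0.0190), a call lost without wild-type replicate 3, and was at -0.51 without wild-type 2 and 3 (adjusted p = 0.125). The groups overlapped in neither gene, with wild-type 3 highest in both. The groups did not overlap, with Atg5-deficient lower, in 15 of the 110 members and in 2.08% of all tested genes.

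Gas5, an RNA known to build up when growth stops and translation of its spliced form ceases, moved less than these (ENSMUSG00000053332, chromosome 1, 161034422 to 161038539, plus strand). Its Atg5-deficient libraries had 123, 155, 155, 140, 111 and 139 CPM and its wild-type libraries 165, 174, 213, 175 and 169 CPM. Wild-type replicate 3 stood well above the other 4, and on this TMM scale the groups did not overlap. When counts were divided only by the total count of each library, the groups overlapped. Wild-type replicate 2 (158.2 CPM) then lay below Atg5-deficient replicates 2 and 3 (159.9 and 160.7 CPM). Gas5 fell by 0.39 (SE 0.10, adjusted p = 0.0349, edgeR), and the value without wild-type 2 and 3 was -0.30 (adjusted p = 0.139). The call was lost without Atg5-deficient replicate 1, 4 or 5 or any 1 of the 5 wild-type libraries.

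The other 6 tested Snhg genes did not pass. Snhg10 had a log2 fold change of -0.66 (adjusted p = 0.0585), with 67.2 CPM in wild-type replicate 2 and 30.1 to 41.1 CPM in the other wild-type libraries. Snhg20 (-0.55), Snhg3 (-0.37), Snhg9 (-0.12) and Snhg5 (-0.10) had adjusted p-values of 0.290 to 0.865. Snhg5, with 25.3 ± 3.35 against 27.0 ± 0.670 CPM, differed little between the groups. Snhg15 was the 1 Snhg gene with a positive value (0.15, adjusted p = 0.501), at 21.02 ± 2.59 against 18.96 ± 2.78 CPM. Snhg11, Snhg14, Snhg18 and Snhg7os had too few counts to be tested.

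**Figure D3:**
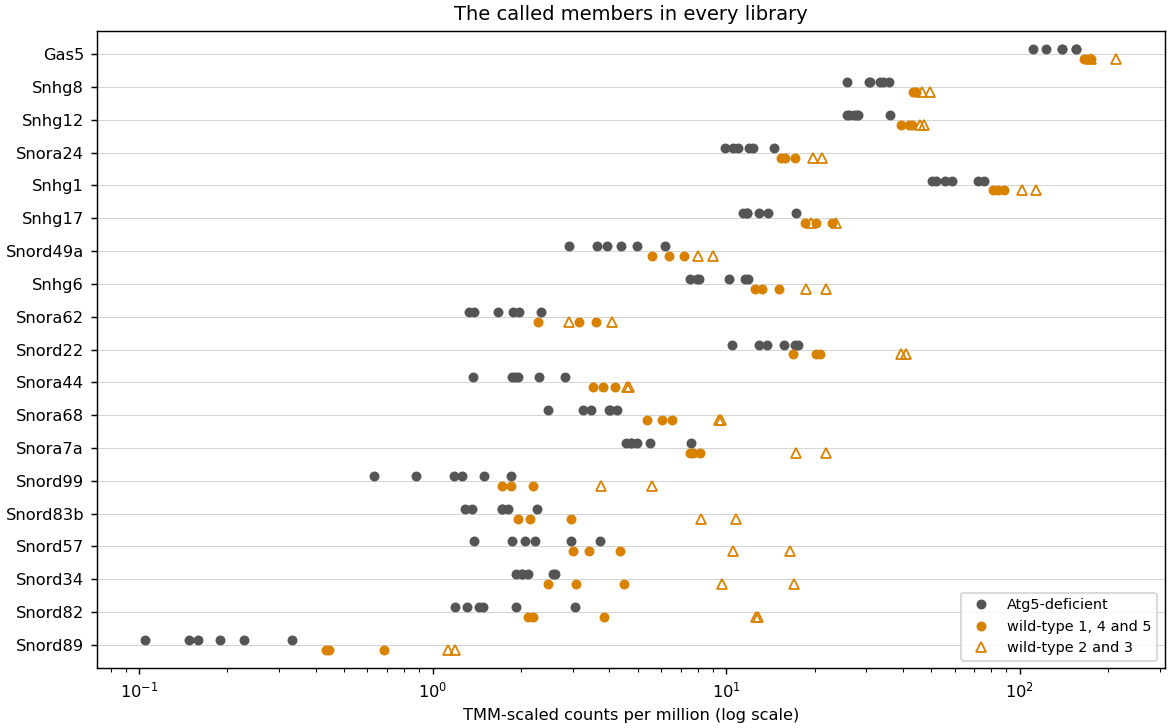
TMM-scaled CPM (log axis) of the 19 members called lower, 1 point per library, with wild-type replicates 2 and 3 as open triangles. In Snord34, Snord57, Snord82 and Snord83b the triangles lie far to the right of the other 3 wild-type libraries, whereas in Snhg12, Snhg8 and Snhg17 the wild-type points lie close together and above all Atg5-deficient points.

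Of the box C/D RNAs, the called ones were Snord89, Snord82, Snord34, Snord57, Snord83b, Snord99, Snord22 and Snord49a, and each call was lost without wild-type replicate 2 and without wild-type replicate 3. Snord34, which lies in an intron of Rpl13a (ENSMUSG00000065878, chromosome 7, 45126601 to 45126670, minus strand), had 2.11, 2.02, 2.01, 2.57, 2.62 and 1.92 CPM in Atg5-deficient libraries. Its wild-type libraries had 3.08, 9.68, 17.0, 2.48 and 4.48 CPM, so that the lowest lay within the Atg5-deficient range and replicates 2 and 3 far above it. Snord34 fell by 1.74 (SE 0.43, adjusted p = 0.0297, edgeR), and without those 2 libraries the value was -0.59 (adjusted p = 0.214). Its call was also lost without Atg5-deficient replicate 1, 2 or 4.

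Snord82, within nucleolin (Ncl), had 1.44, 1.92, 1.20, 1.48, 3.06 and 1.31 CPM against 2.12, 12.6, 12.9, 3.85 and 2.19 CPM. It fell by 1.95 (SE 0.50, adjusted p = 0.0365, edgeR), and the value was -0.63 without wild-type 2 and 3 (adjusted p = 0.330). Snord57, within Nop56, showed the same shape with 2.97, 2.07, 3.71, 2.23, 1.38 and 1.86 CPM against 3.01, 10.5, 16.5, 4.36 and 3.41 CPM. It fell by 1.68 (SE 0.44, adjusted p = 0.0377), and the value was -0.60 without the pair (adjusted p = 0.291). In both genes wild-type 1 and 5 lay within the Atg5-deficient range and wild-type 4 above it. Snord83b, within Rpl3, fell by 1.62 (SE 0.42, adjusted p = 0.0369) and was at -0.46 without the pair. Besides wild-type 2 or 3, these 3 calls were lost without Atg5-deficient 1, 2, 4 or 6, and without Atg5-deficient 3 (Snord82) or 5 (Snord57 and Snord83b).

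Snord89 was the 1 called box C/D RNA whose groups did not overlap (ENSMUSG00000077704, chromosome 1, 39548745 to 39548854, minus strand, within the noncoding gene Gm15832). It was scarce, with 0.333, 0.227, 0.189, 0.159, 0.148 and 0.105 CPM in Atg5-deficient libraries, against 0.444, 1.19, 1.13, 0.684 and 0.433 CPM in wild-type ones. Its lowest libraries thus lie little above the level of 3 counts. Snord89 fell by 1.99 (SE 0.47, adjusted p = 0.0248, edgeR). Without wild-type 2 and 3 the value was -1.41 (adjusted p = 0.183), and the call was also lost without Atg5-deficient replicate 4.

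Snord22, in Snhg1, had 10.5, 12.9, 17.6, 13.8, 17.2 and 15.7 CPM against 20.8, 39.5, 41.1, 16.8 and 20.3 CPM, with wild-type 4 inside the Atg5-deficient range. It fell by 0.92 (SE 0.24, adjusted p = 0.0365, edgeR), and the value was -0.39 without wild-type 2 and 3 (adjusted p = 0.200). Its call was also lost without Atg5-deficient replicate 1, 2 or 4. Snord99, in Snhg12, fell by 1.31 (SE 0.37, adjusted p = 0.0462) and Snord49a, in the noncoding gene 2410006H16Rik, by 0.74 (SE 0.20, adjusted p = 0.0439). Either call was lost without Atg5-deficient 1, 2, 4 or 5 or wild-type 2 to 5, that of Snord99 also without Atg5-deficient 6 and that of Snord49a without wild-type 1.

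The most counted box C/D RNA did not follow this. Snord15b, within Rps3, held 46.4% of all Snord counts. It stood at 131, 152, 170, 127, 297 and 134 CPM in Atg5-deficient libraries and at 157, 354, 368, 160 and 172 CPM in wild-type libraries. Atg5-deficient replicate 5 and wild-type replicates 2 and 3 were high, and the other 8 libraries lay between 127 and 172 CPM. The log2 fold change was -0.52 (adjusted p = 0.347, edgeR), and 0.06 without wild-type 2 and 3. Its neighbour in Rps3, Snord15a (0.10, adjusted p = 0.923), and Snord17, within Snx5 (-0.10, adjusted p = 0.908), had their highest value in Atg5-deficient replicate 5, at 64.9 and 103 CPM. Just outside the threshold were Snord55 (-1.61, adjusted p = 0.0532), Snord45c (-1.24, adjusted p = 0.0542) and Snord8 (-1.59, adjusted p = 0.0547). Snord118, the U8 RNA, which acts in the maturation of the large ribosomal subunit RNAs, had the largest positive value of the members (0.46, adjusted p = 0.287).

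The box H/ACA RNAs that fell were Snora68, Snora24, Snora44, Snora7a and Snora62. Snora68 had 4.02, 3.26, 4.25, 4.002, 2.47 and 3.47 CPM in Atg5-deficient libraries. The wild-type libraries had 6.56, 9.61, 9.44, 5.36 and 6.06 CPM, all above. It fell by 1.05 (SE 0.21, adjusted p = 0.0108, edgeR), and the value was -0.74 without wild-type 2 and 3 (adjusted p = 0.0687).

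Snora24, in Snhg8, had 11.9, 10.97, 9.94, 12.4, 10.5 and 14.6 CPM against 15.9, 19.7, 21.2, 15.3 and 17.2 CPM, again without overlap. It fell by 0.61 (SE 0.13, adjusted p = 0.0139), and the value was -0.45 without the pair (adjusted p = 0.0902). Snora44, in Snhg12, had 1.91, 2.30, 2.83, 1.38, 1.95 and 1.86 CPM against 4.18, 4.68, 4.60, 3.51 and 3.80 CPM. Its groups did not overlap either, and wild-type 1, 4 and 5 (3.83 ± 0.339 CPM, SD, n = 3) were close to the other 2. Snora44 fell by 1.03 (SE 0.22, adjusted p = 0.0146), and the value was -0.90 without the pair (adjusted p = 0.0696). Leaving out any 1 library kept the calls of Snora68, Snora24 and Snora44, and likewise those of Snhg1, Snhg8, Snhg12 and Snhg17.

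Snora7a, within Rpl32, was closer to the box C/D pattern, with 4.74, 4.55, 7.58, 4.98, 5.503 and 4.75 CPM against 7.68, 17.3, 21.9, 7.50 and 8.15 CPM. It fell by 1.23 (SE 0.29, adjusted p = 0.0237, edgeR), and the value was -0.53 without wild-type 2 and 3 (adjusted p = 0.146). The call was lost without either of those libraries and without Atg5-deficient replicate 1, 2 or 4. Snora62, within Rpsa, which encodes a ribosomal protein of the small subunit, fell by 0.86 (SE 0.24, adjusted p = 0.0437), a call lost without Atg5-deficient 1, 2, 4 or 5 or wild-type 1, 2, 3 or 5. The most counted members were Snora74a (-0.84, adjusted p = 0.119), Snora24, Snora81 in Eif4a2 (-0.47, adjusted p = 0.181) and Snora73a (-0.49, adjusted p = 0.312), a form of the U17 RNA that acts in cleavage of the ribosomal RNA precursor. Snora52 in Rplp2 (-0.94, adjusted p = 0.0586), Snora61 in Snhg12 (-0.84, adjusted p = 0.0662) and Snora65 in Rpl12 (-0.69, adjusted p = 0.0681) just missed the threshold.

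None of the 6 scaRNAs passed with edgeR's quasi-likelihood test, 2 had an unadjusted p under 0.05, and DESeq2 and limma-voom each called 1 lower. With edgeR, Scarna2 came nearest. Scarna2, which guides modification of the U2 spliceosomal RNA and has no host gene by the rule used here, held 64.0% of the Scarna counts. It had 60.6, 62.3, 86.5, 64.1, 41.0 and 70.2 CPM in Atg5-deficient libraries and 78.0, 153, 127, 77.2 and 96.8 CPM in wild-type libraries. It had a log2 value of -0.73 (SE 0.21, adjusted p = 0.0519, edgeR), and -0.38 without wild-type 2 and 3 (adjusted p = 0.233). Scarna10, within Ncapd2, stood at 36.9 ± 9.16 against 35.9 ± 7.14 CPM (0.04, adjusted p = 0.917), while its host, a condensin subunit gene of dividing cells, rose by 0.45 (adjusted p = 0.0214). Scarna17 (-0.89, adjusted p = 0.130) was at -0.03 without wild-type 2 and 3, Scarna9 at -0.28 and 0.02, and Scarna6, within Atg16l1, at -0.19 and 0.09.

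Summed over all members of a class and divided by the total count of each library, box C/D RNAs came to 255, 310, 379, 297, 555 and 322 CPM in Atg5-deficient libraries, against 386, 694, 772, 350 and 393 CPM in wild-type ones. The groups averaged 353 ± 107 and 519 ± 198 CPM, and wild-type 1, 4 and 5 averaged 376 ± 23.0 CPM, a difference smaller than the SD of the Atg5-deficient libraries. Of the 555 CPM of Atg5-deficient replicate 5, all Snord genes but Snord15b made up 264 CPM. Box H/ACA RNAs came to 110 ± 29.7 against 171 ± 24.5 CPM (156 ± 19.7 CPM without the pair), with Atg5-deficient replicate 3 (163 CPM) inside the wild-type range of 134 to 194 CPM. Scarna genes came to 111 ± 25.4 against 150 ± 30.2 CPM. Snhg transcripts came to 245 ± 42.9 against 336 ± 21.7 CPM (322 ± 16.6 CPM without the pair), and 5 of 6 Atg5-deficient libraries lay below the wild-type range of 304 to 358 CPM. No test was made of these sums.

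**Figure D4:**
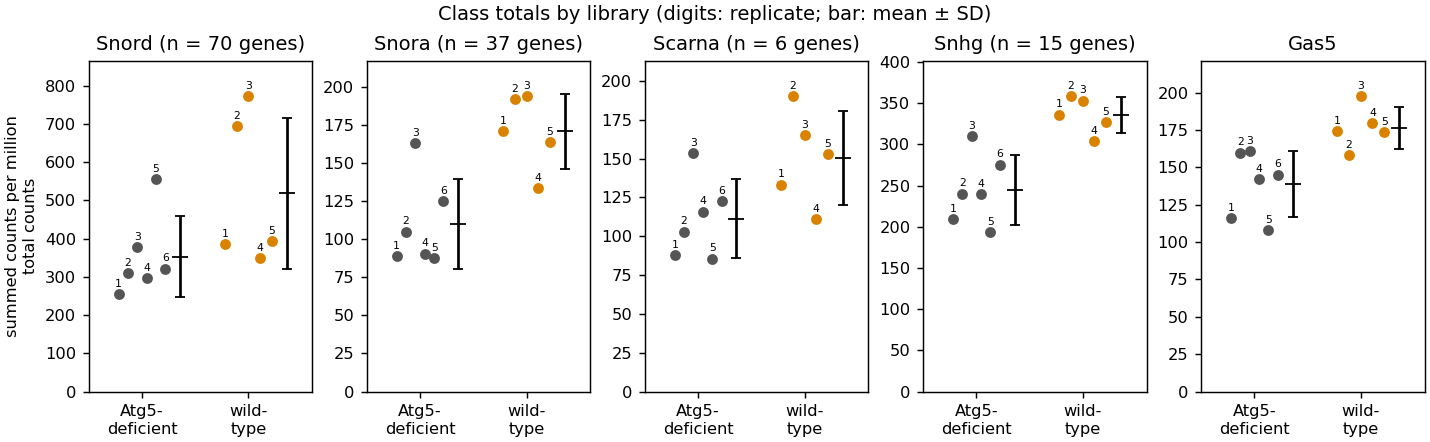
Summed counts of each class as CPM of all counts, 1 point per library with its replicate number, and the mean ± SD of the group (6 Atg5-deficient, 5 wild-type). Wild-type 2 and 3 stand at 694 and 772 CPM in the Snord panel, where the other wild-type libraries are at 350 to 393 CPM. The 5 wild-type libraries lie at 304 to 358 CPM in the Snhg panel. In the Gas5 panel they lie at 158.2 to 197.5 CPM, with wild-type 2 below Atg5-deficient 2 and 3 (159.9 and 160.7 CPM).

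Small RNAs were then set beside their host genes, the gene whose annotated span holds them on the same strand and, for the 7 that lie in several genes, the one with the most counts. Of 98 tested small RNAs 89 had such a host that was tested, in 68 host genes. The sign of the log2 fold change was the same in 78 of the 89, and the small RNA had the lower value in 82. Of the hosts 57 of 68 were negative, as were 105 of 110 members. Most signs would therefore be the same whether or not a small RNA and its host are linked, which was not tested. The median of the small RNAs was -0.73 and that of the hosts -0.23. Without wild-type 2 and 3 these were -0.36 and -0.16, and the median difference between a small RNA and its host went from -0.44 to -0.14.

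By kind of host, the 12 small RNAs in Snhg transcripts or Gas5 had a median of -0.91, with 4 called lower. Of their 7 hosts 5 fell too (median -0.52), where 2.41% of all tested genes fell and 4.43% rose. Of these 12 small RNAs, 10 lie at least in part in annotated exons of their host. Whether the same reads entered both counts was not tested. Snora73a and Snora73b also lie within the span of Snhg3 (-0.37, adjusted p = 0.400) but were set beside Rcc1, which has more counts. Counted with Snhg3, they make 14 small RNAs with a median of -0.87, with 4 called lower, and 5 of 8 hosts that fell. The 29 in ribosomal protein genes had a median of -0.73, with 5 called lower, and 8 of 22 hosts fell, 1 of them (Rpl32) with its snoRNA. The ribosomal protein hosts were all negative, with a median of -0.33. The 48 in other host genes had a median of -0.69, with 4 called lower, and 5 of 39 hosts fell and 1 rose (median -0.11). The 9 without a host, which include Scarna2 and Snord118, had a median of -0.89, and none was called. These kinds rest on the symbols and spans of GENCODE M21 alone. RefSeq also starts Snhg7 upstream of Snora17 and Snora43, counted here without a host, on the same strand. It likewise starts Snhg16 upstream of Snord1b, counted here with the other hosts. Whether those transcripts hold these RNAs was not tested. Without wild-type 2 and 3 the medians of the 4 kinds were -0.42, -0.34, -0.35 and -0.23.

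**Figure D5:**
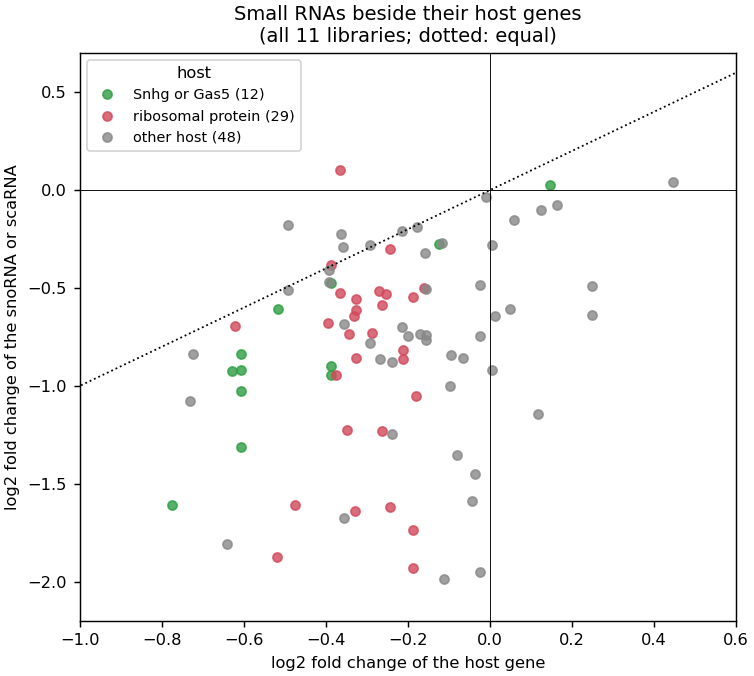
Log2 fold change of 89 small RNAs (y axis) against that of their host gene (x axis), all 11 libraries, coloured by kind of host. Small RNAs reach -1.99, and 82 of 89 points lie below the dotted line of equal values.

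The values of small RNAs from 1 host lay close together in some hosts and apart in others. In Eif4a2, Snord2 and Snora81 had -0.41 and -0.47, and in Rcc1, Snora73a and Snora73b had -0.49 and -0.64. The wider ranges were those of Ncl, Rpl13a and Rpl3. In Rpl13a, itself at -0.19 (adjusted p = 0.336), Snord32a had -1.93, Snord34 -1.74 and Snord35a -0.55. Snord32a had 16.2 and 23.4 CPM in wild-type 2 and 3 and 1.87 to 3.21 CPM in the other 9 libraries, and did not pass (adjusted p = 0.0769). Without those 2 libraries the 3 values ran from -0.59 to -0.05. In Ncl, Snord82 had -1.95 and Snora75 -0.48, and without the pair -0.63 and -0.68. The 4 RNAs of Snhg12 had -1.31 (Snord99) to -0.84 (Snora61), and the 3 of Gas5 (Snord47, Snord80 and Snord78) -0.94 to -0.47. Whether such values differ from each other was not tested.

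The reads of a small RNA and of its host could not always be separated. Of the 89, 44 lie at least in part in annotated exons of their host (37 wholly), such as Snora24 in Snhg8, Snora44 in Snhg12 and Snord22 in Snhg1. In none of these 44 did the small RNA have more counts than its host. Its count equalled 0.0851% (Snord42b in Rpl23a) to 58.5% (Snord60 in Rab26os) of the host count. The share was 38.3% for Snora24, 27.2% for Snord22 and 8.49% for Snora44. How many reads entered both counts was not tested. Per base, 30 of the 89 were covered more densely than the exons of their host. Snord15b had 1393 CPM per kilobase against 242 for Rps3, Snord22 163 against 25.5 for Snhg1, and Snora24 112 against 44.6 for Snhg8. In ribosomal protein genes 1 of 29 was denser than its host, and Snord34 had 65.0 CPM per kilobase against 900 for Rpl13a. For such RNAs reads from unspliced host RNA cannot be told apart from those of the mature snoRNA.

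Values were also set beside gene length. Of the 50 members under 100 bases all had a negative log2 fold change (median -0.84, and -0.35 without wild-type 2 and 3), and of the 39 members of 100 to 149 bases 36 did (median -0.72 and -0.39). Other tested genes under 100 bases had a median of -0.18 (327 genes, 69.4% negative), and those of 100 to 149 bases -0.31 (165 genes, 75.2% negative). Without wild-type 2 and 3 these medians were -0.22 and -0.27. At 150 to 299 bases the medians were -0.40 for 158 other genes and -0.48 for 8 members (-0.23 and -0.16 without the pair). Wild-type 2 and 3 lay above each other library in 66.0% of members under 100 bases, in 8.56% of other genes of that size and in 34.2% of other genes of 150 to 299 bases. From 300 to below 1000 bases the medians were -0.25 for 1857 other genes (65.8% negative) and -0.52 for 5 members. Without the pair these were -0.09 and -0.31. Wild-type 2 and 3 lay above each other library in 23.2% of these other genes and in 80% of these members. Other genes of 1000 bases or more had a median of 0.03. The 8 members of that length had a median of -0.58, with 7 negative and 5 called lower (62.5%, against 2.22% of the other genes).

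The starts of Gas5 and of the called Snhg transcripts other than Snhg6 are shown from RefSeq (GRCm38.p6), 20 bases on each side of the annotated start, with the longest run of C and T within 10 bases of it in capitals. Where RefSeq gives more than 1 start, the one with the longer run is shown.
Gas5 at chr1:161035146-161035185, plus strand: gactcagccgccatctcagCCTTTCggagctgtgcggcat
Snhg1 at chr19:8723467-8723506, plus strand: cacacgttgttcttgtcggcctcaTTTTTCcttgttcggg
Snhg8 at chr3:123508317-123508356, minus strand: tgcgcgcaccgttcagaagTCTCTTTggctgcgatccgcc
Snhg12 at chr4:132308658-132308697, plus strand: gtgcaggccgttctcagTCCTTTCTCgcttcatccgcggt
Snhg17 at chr2:158361490-158361529, minus strand: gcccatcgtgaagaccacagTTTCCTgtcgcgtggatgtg
Runs of 6 to 9 such bases lie at these starts, and that of Snhg1 runs on beyond the window. The starts of Gas5 and Snhg17 that are not shown have runs of 3. Runs shorter than 8 were not counted over all promoters. A run of at least 8 within that window, on the strand of the gene only, was found in 4 of 21 Snhg and Gas5 promoters (19.05%), in 25.8% of 93 promoters of ribosomal protein genes and in 7.43% of all 32851 promoters. The 4 Snhg promoters were those of Snhg12 (called lower), Snhg9 and Snhg10 (not called) and Snhg18 (not tested). Such a match describes letters only.

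Genes of the proteins that bind and make these RNAs were tested from 5 lists, and 1 of their 55 genes passed, where 2.41% of all tested genes were lower and 4.43% higher, and 23.4% had an unadjusted p under 0.05. Among the 4 core proteins of box C/D particles, Nop56 had 110 ± 13.7 CPM in Atg5-deficient libraries, against 140 ± 4.95 CPM in wild-type ones. Nop56 fell by 0.36 (SE 0.09, adjusted p = 0.0259, edgeR), a call kept under 5 of 11 single omissions and lost without wild-type 2 and 3 (adjusted p = 0.111). Nop56 is also the host of Snord57, which lies in its annotated exons and whose count equalled 3.89% of that of Nop56. Fbl, which encodes fibrillarin (-0.24, adjusted p = 0.175), Nop58 (-0.24, adjusted p = 0.101) and Snu13 (-0.08, adjusted p = 0.754) did not pass. Of these 4 genes 3 had an unadjusted p under 0.05, and DESeq2 and limma-voom called 1 and 3 of them. None of the 4 core genes of box H/ACA particles passed: Nop10 was at -0.36 (adjusted p = 0.153), Dkc1, which encodes dyskerin, at -0.30 (adjusted p = 0.182), Gar1 at -0.11 and Nhp2 at -0.05. For these 4 the count was 0 with edgeR, DESeq2 and limma-voom, and 2 had an unadjusted p under 0.05.

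Of 15 assembly and maturation factors none passed by any of the 3 tools (edgeR, DESeq2, limma-voom), with 2 at an unadjusted p under 0.05, a median of -0.05 and the lowest p in Rrp9 (-0.29, adjusted p = 0.128). Rpap3, of the complex that loads the core proteins, was at 0.38 (adjusted p = 0.199), and Znhit3 at -0.42 (adjusted p = 0.220). Of 18 genes for opening intron lariats and trimming snoRNA ends none passed with edgeR, 5 had an unadjusted p under 0.05, and DESeq2 and limma-voom called 1 and 3. The deadenylase gene Parn was at -0.24 (adjusted p = 0.0886), the exosome genes Exosc1 at -0.35 and Dis3 at -0.21, and the debranching enzyme gene Dbr1 at 0.00 (adjusted p = 0.993). Of 14 genes of nonsense-mediated decay, which removes many Snhg transcripts, none passed with edgeR, with 1 at an unadjusted p under 0.05, 0 called by DESeq2 and 1 by limma-voom. Smg1 was at -0.25 (adjusted p = 0.183), Eif4a3 at 0.16 (adjusted p = 0.263), Upf3b at 0.19 (adjusted p = 0.287) and Upf1 at 0.06. The medians of the 5 lists were -0.24, -0.21, -0.05, -0.03 and 0.01 beside 0.00 for all tested genes, and upper-quartile scaling lowered the median of all genes by 0.07.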

How the data were processed

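The authors deposited a table of raw counts by Ensembl gene for the 11 libraries. The submitters' processing notes name STAR, featureCounts and GRCm38. Tool versions, annotation release, strandedness and the treatment of reads with several matches or on overlapping genes are not given in these sources, and multicopy or overlapping snoRNAs depend on them. Symbols, coordinates, lengths and snoRNA sequences came from GENCODE M21, which matched 91.9% of 56748 IDs and 89.3% to 96.5% of the reads of a library. A further 37 annotated members were not analysed here.

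After edgeR's filterByExpr (minimum count 10, minimum total 15) and TMM scaling, genes were tested over 17987 genes with edgeR 4.0.16 (quasi-likelihood, robust, Benjamini-Hochberg, threshold 0.05) in R 4.3.3, without covariates. DESeq2 1.42.0 and limma 3.58.1 (voom) were alternatives, with other scalings and filters, a hepatocyte covariate, the 8 libraries with neighbouring title numbers, and each library left out. Totals were 30699408 to 47564440 counts. No 2 libraries of a group were alike: chi-square over degrees of freedom was 13.9 to 188 in 25 pairs. On simulated data for this comparison (17749 genes) the test recovered 0%, 23.8% and 100% of changes of 1.5, 2 and 4 times, with 0 false calls. The simulation gave every gene the same spread (coefficient of variation 0.341) and held no libraries that stand apart. These rates therefore need not hold for the real libraries, and the false calls do not cover a deviating pair.

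Members and lists were chosen with earlier results of these data known. Named were Gas5, tested Snhg genes, called small RNAs, the 4 most counted and the 3 nearest misses per class, their hosts where described, and list genes by p. Others named (Snord118, Snord32a, Snord35a, Snora75, Upf1, Dbr1 and members sharing a host) were chosen after their values were seen. Some host genes are not reported here.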

Additional observations from a re-analysis of the deposited data

Results flagged for a closer look

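Values of 1 library stood apart from the rest of its group in 4 of 54 groups looked at (gap to the nearest library over the range of the group, above 0.625 for 6 libraries and 0.71 for 5). Chance flags about 1 in 20 groups. Atg5-deficient replicate 5 had 297 CPM of Snord15b, where the other Atg5-deficient libraries had 127 to 170 CPM. Atg5-deficient replicate 3 had 36.2 CPM of Snhg12 (25.8 to 28.0 in the others) and 7.58 CPM of Snora7a (4.55 to 5.503 in the others). Wild-type replicate 3 had 213 CPM of Gas5, where the other wild-type libraries had 165 to 175 CPM.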

How the results depend on the processing

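No member was called higher in any fit. The 19 members called lower became 37 with DESeq2, 29 with a hepatocyte covariate, 6 in the 8 libraries with neighbouring title numbers (Atg5-deficient 1 to 5, wild-type 2 to 4), 3 without wild-type 2 and 3, and 2 when Atg5-deficient 5 was left out as well (7 to 29 with each library left out). Among all tested genes 2.41% were lower in the main fit, and 5.22%, 3.10%, 89 of 18831, 1.26% and 1.26% under these 5 settings. Under the same 5 settings, in that order, Snord calls (8) became 19, 15, 2, 0 and 0 (0 to 11). Snora calls (5) became 10 with DESeq2, 14 with limma-voom, 2 in those 8 libraries and 0 without wild-type 2 and 3, with or without Atg5-deficient 5 (3 to 12). Snhg calls (5) became 2 in those 8 libraries, 3 without wild-type 2 and 3 and 2 without Atg5-deficient 5 as well (4 to 7). Scarna calls (0) became 1 with upper-quartile factors, DESeq2, limma-voom, the strict filter or the covariate (0 to 1). Without Scarna2 the log2 difference of the Scarna totals went from -0.44 to -0.022. For the cases given here the cause was not tested, and fits on fewer libraries have less power. Over all genes, calls came to 1231, 2333 with DESeq2, 3382 with limma-voom and 176 in those 8 libraries, and to 715, 642, 2143, 702, 673, 710 and 651 without Atg5-deficient 1, 2, 3 and 4 and wild-type 1, 4 and 5. They came to 722 without wild-type 2 and 3, and to 658 without Atg5-deficient 5 as well.

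Signs changed in uncalled members. The log2 fold change of Snord15a (0.10) was at -0.048 in those 8 libraries, and at -0.33, -0.0037, -0.033 and -0.024 without Atg5-deficient 5 and wild-type 1, 4 and 5 (-0.33 to 0.43 with each library left out). The log2 fold change of Snord17 (-0.10) was at 0.047, 0.00855, 0.0020 and 0.036 without Atg5-deficient 1, 2 and 4 and wild-type 2 (-0.49 to 0.047), and at 0.14 without wild-type 2 and 3. For scaRNAs, the log2 fold change of Scarna10 (0.04) was at -0.025 with upper-quartile factors, -0.080 with limma-voom, and -0.069 and -0.071 without Atg5-deficient 3 or wild-type 4 (-0.071 to 0.14). Among hosts, the log2 fold change of Snhg9 (-0.12) was at 0.046 in those 8 libraries and 0.0045 without Atg5-deficient 6 (-0.24 to 0.0045). Without wild-type 2 and 3, Snord15b was at 0.062, Scarna6 at 0.093 and Scarna9 at 0.021, and without Atg5-deficient 5 as well Scarna6 was at 0.19 and Scarna9 at 0.15. No paired analysis was possible because the labels carry no replicate numbers.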
